A study of Mus musculus with 12 samples.

Results

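The comparison set 6 HARE5Hs/Hs embryos against 6 WT embryos of the mouse, with embryonic day as a covariate, so that each difference is in essence the mean of the genotype differences at 2 ages. For some genes with few counts it departs from that mean. It uses all 12 of the 12 libraries of the series, chosen by their genotype and age labels, and no measured value entered that choice. Each library is mRNA from the microdissected cerebral cortex of a single embryo, prepared with a stranded kit and sequenced. The 4 groups hold 3 embryos each: WT at E12.5 (embryonic day), HARE5Hs/Hs at E12.5, WT at E14.5 and HARE5Hs/Hs at E14.5. HARE5Hs/Hs denotes mice homozygous for a knock-in of the human version of the enhancer HARE5. No label gives a strain, litter, sex, transgene or treatment for any group, nor how many founder lines the knock-in rests on.

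HARE5 is an enhancer of Fzd8 whose sequence changed rapidly on the human lineage. Fzd8 encodes a Frizzled receptor. Secreted Wnt ligands bind Frizzled receptors and their Lrp5 or Lrp6 co-receptor, which halts the destruction complex that degrades β-catenin. β-catenin then acts with Tcf and Lef factors on target genes such as Axin2. In the embryonic cortex, Wnt signalling is known for its part in keeping radial glia dividing. Radial glia are the stem cells that make neurons, either directly or by way of intermediate progenitors. Over the interval sampled here, the cortex moves from mostly dividing progenitors toward the height of neuron production.

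The libraries held 11593202 to 17670103 counts each. Cortical markers were present in all 12: Pax6, of radial glia, ran from 129 to 172 CPM (counts scaled to the size of the library). Xist, transcribed from the inactive X, was at 1345 CPM or more in 8 libraries and at 0.798 CPM or less in 4, which gives 2 females and 1 male in every group. A pair of HARE5Hs/Hs libraries stood apart. On an axis that runs along the mean difference between the ages, from 0 for the mean of E12.5 to 1 for the mean of E14.5, E12.5 HARE5Hs/Hs replicate 1 lay at 0.215 while the other E12.5 libraries lay between −0.0980 and 0.00486. E14.5 HARE5Hs/Hs replicate 3 lay at 1.33, above the 0.891 and 1.08 of its group, while the third WT embryo of E14.5 lay at 0.711, below the 0.971 and 1.02 of its own. The genotype difference on this axis was 0.131, with an exact permutation p of 0.21 (two-sided, labels permuted within age, adjusted p = 0.42 over 10 single values). Leaving out both HARE5Hs/Hs libraries was a choice made after seeing the data. It moved the median of 27 of 40 gene lists by over 1.5 times or turned its sign. Each such median is given below with its value without them. Both were the libraries farthest along the axis at their age, so the choice takes out high positions of HARE5Hs/Hs only. The WT embryo at 0.711 lay about as far from its group and was left out only singly.

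**Figure D1:**
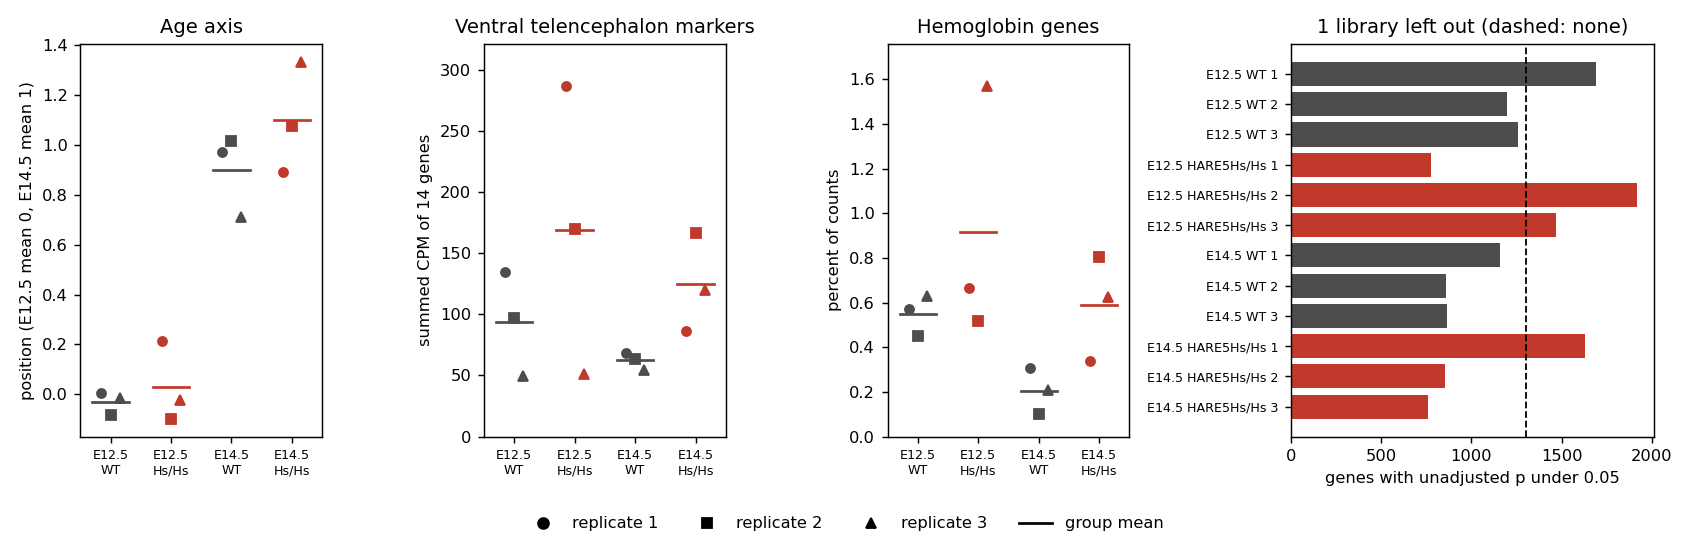
Single values by library for the 4 groups (dark, WT; red, HARE5Hs/Hs; marks, replicates; bars, group means): position on the age axis, summed CPM of 14 ventral telencephalon markers, and percent of counts from hemoglobin genes. The bars at the right give the number of genes with an unadjusted p under 0.05 after leaving out 1 library, which was lowest, 759, without E14.5 HARE5Hs/Hs replicate 3 and highest, 1916, without E12.5 HARE5Hs/Hs replicate 2.

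Fzd8, the gene HARE5 acts on, differed by less than the spread between embryos. Its E12.5 values were 49.8, 72.2 and 52.3 CPM (WT) and 82.1, 51.2 and 51.7 CPM (HARE5Hs/Hs). Its E14.5 values were 51.3, 55.7 and 51.6 CPM (WT) and 56.9, 53.6 and 50.1 CPM (HARE5Hs/Hs). The genotypes overlapped at both ages, and the highest value was that of E12.5 HARE5Hs/Hs replicate 1. On the log2 scale the difference over both ages was 0.05, with a standard error (SE) of 0.12, a 95% interval of −0.21 to 0.32 and an adjusted p of 0.912 (edgeR adjusted p, from its quasi-likelihood test, with the Benjamini-Hochberg method across all 14311 tested genes). Without E12.5 HARE5Hs/Hs replicate 1 it was −0.07. Per transcript length, the level of Fzd8 was 17.5 ± 2.71 FPKM in WT and 18.3 ± 3.86 FPKM in HARE5Hs/Hs (SD, n = 6), below Fzd1, Fzd2 and Fzd3, whose means in WT were 26.9, 30.4 and 33.8 FPKM. An enhancer knock-in leaves no transcript of its own in these counts, so the genotype labels could not be checked from a targeted gene.

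The genes next to Fzd8 in gene order differed as little. Wac, a gene for a chromatin and autophagy adaptor and the nearest tested gene on one side, differed by 0.08 (SE 0.07, edgeR adjusted p = 0.756), and Ccny, a membrane-bound cyclin gene on the other side, by 0.05 (SE 0.05, edgeR adjusted p = 0.78). Of 20 genes, the 10 nearest tested on each side, 13 were higher and 7 lower in HARE5Hs/Hs. Their median log2 difference was 0.05, with single values between −0.49 and 0.22. The one with an unadjusted p under 0.05 was Rab18, a small GTPase of lipid droplets and the endoplasmic reticulum. It stood at 64.3, 60.7 and 64.4 CPM in E12.5 WT and at 74.9, 78.2 and 71.4 CPM in E12.5 HARE5Hs/Hs, with no overlap, but overlapped at E14.5 (0.17 over both ages, SE 0.06, edgeR adjusted p = 0.545).

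Across the transcriptome, no gene passed. Of 14311 tested genes, 0 (0%) had an edgeR adjusted p under 0.05, and the smallest was 0.545. At an unadjusted p under 0.05 there were 1304 genes (9.11%), of which 755 (5.28% of those tested) were higher and 549 (3.84%) lower in HARE5Hs/Hs. DESeq2 called 0 of 17904 genes, with 1447 at an unadjusted p under 0.05 and a smallest adjusted p of 0.173, and limma called 0, with 1264. The count at an unadjusted p under 0.05 depended on single embryos. It was 773 without E12.5 HARE5Hs/Hs replicate 1, 759 without E14.5 HARE5Hs/Hs replicate 3, and 416 of 14472 tested genes without both. It was also under 1304 by more than 1.5 times when E14.5 HARE5Hs/Hs replicate 2 (851) or the WT embryos 2 (860) or 3 (866) of that age were left out.

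The precision was enough to bound most genes. The median SE was 0.11, and the 95% interval of 11869 genes (82.9%) lay wholly within −1 to 1, that is, within a doubling or halving. The quartiles of all log2 differences lay between −0.10 and 0.10, with a median of −0.005, and 211 genes differed by at least 1 in either direction. Litter is not labelled, so the spread between embryos also holds differences between litters, stage within a day and dissection.

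Of the 10 named genes with the smallest p and a higher level in HARE5Hs/Hs, 0 passed. Chrm1 encodes the M1 muscarinic acetylcholine receptor. It measured 0.249, 0.117 and 0.314 CPM in E12.5 WT against 1.35, 0.549 and 1.13 CPM in HARE5Hs/Hs, and 3.05, 2.97 and 2.12 CPM in E14.5 WT against 4.09, 6.41 and 8.75 CPM. All 3 HARE5Hs/Hs embryos lay above all 3 WT embryos at each age, although the lowest value rests on 2 counts. The difference was 1.56 (SE 0.33, 95% interval 0.85 to 2.27, edgeR adjusted p = 0.545), and 1.29 without the 2 libraries that stood apart.

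Grip2, a scaffold that holds AMPA-type glutamate receptors at synapses, showed the same order. It measured 0.810, 1.17 and 1.44 CPM in E12.5 WT against 5.56, 2.03 and 1.66 CPM in HARE5Hs/Hs, and 3.92, 4.05 and 3.39 CPM in E14.5 WT against 5.40, 12.1 and 7.93 CPM. The difference was 1.28 (SE 0.31, edgeR adjusted p = 0.545). Calb1 encodes calbindin, a calcium buffer of several neuron types. It measured 2.30, 1.40 and 1.38 CPM in E12.5 WT against 3.61, 2.58 and 2.33 CPM in HARE5Hs/Hs, and 0.664, 0.540 and 0.996 CPM in E14.5 WT against 1.84, 5.87 and 3.74 CPM. Again the groups did not overlap at either age, and the difference was 1.51 (SE 0.39, edgeR adjusted p = 0.545).

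The remaining genes of that set were more abundant and differed less. Stmn4, a stathmin that acts on neuronal microtubules, measured 20.1, 21.9 and 18.3 CPM in E12.5 WT, 44.2, 30.6 and 20.8 CPM in E12.5 HARE5Hs/Hs, 40.5, 34.6 and 26.9 CPM in E14.5 WT and 40.9, 65.2 and 60.9 CPM in E14.5 HARE5Hs/Hs. Its ranges overlapped at E12.5 but not at E14.5, and it was higher by 0.69 (SE 0.17). Basp1, a membrane protein of growing axons, was higher by 0.26 (SE 0.07). Zfp428, a zinc-finger gene, was higher by 0.41 (SE 0.09), the pseudokinase gene Trib2 by 0.28 (SE 0.07), the MAP kinase phosphatase gene Dusp1 by 0.38 (SE 0.10) and Eid1, an inhibitor of p300-type acetyltransferases, by 0.22 (SE 0.06). Chd3os was higher by 0.43 (SE 0.10), but it is named as the opposite strand of Chd3, and since the strand setting of the counting is not given in the sources used here, reads of the pair cannot be told apart. None passed (edgeR adjusted p = 0.545 for each).

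**Figure D2:**
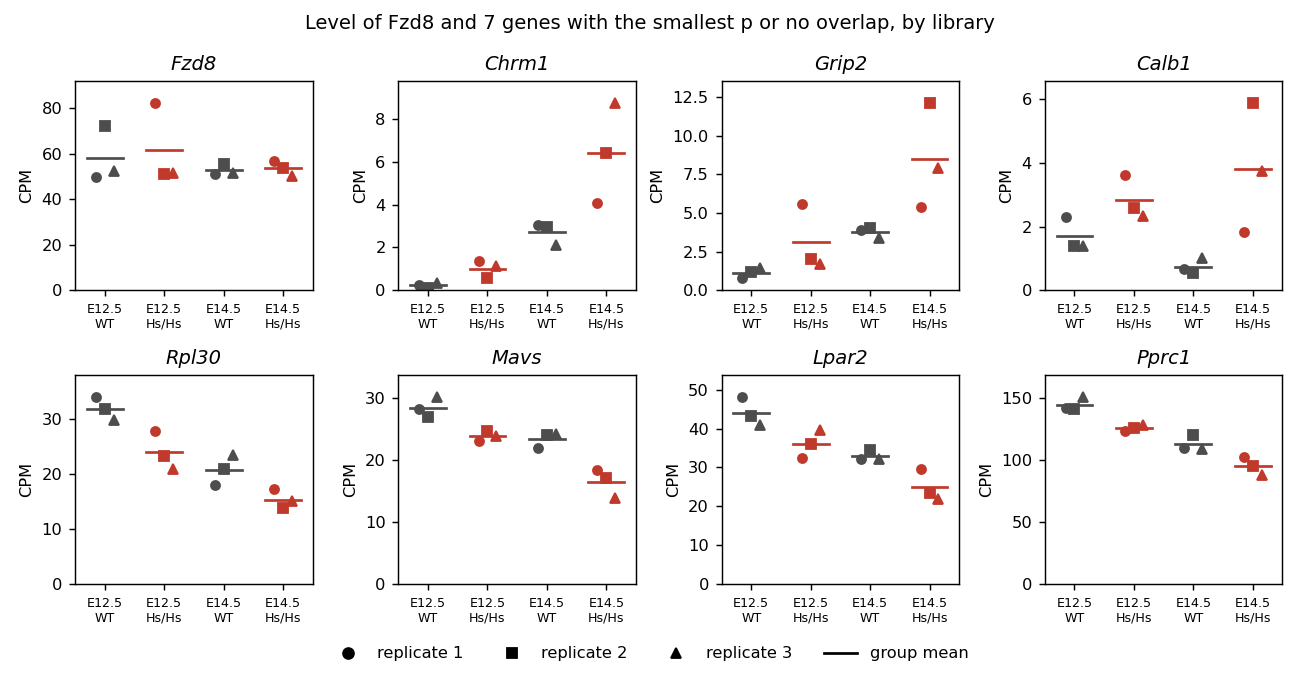
Level in CPM of Fzd8 and of 7 named genes in each library, by genotype and age (marks, replicates 1 to 3; bars, group means; every axis starts at 0). Fzd8 overlaps between genotypes at both ages, while Chrm1, Grip2 and Calb1 lie higher and Rpl30, Mavs, Lpar2 and Pprc1 lower in all 3 HARE5Hs/Hs embryos at each age.

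The 10 named genes with the smallest p and a lower level in HARE5Hs/Hs, of which 0 passed, differed by between −0.42 and −0.18. Rpl30, of the large ribosomal subunit, measured 34.0, 31.9 and 29.9 CPM in E12.5 WT against 27.9, 23.2 and 21.0 CPM in HARE5Hs/Hs, and 18.1, 20.9 and 23.5 CPM in E14.5 WT against 17.3, 13.8 and 15.03 CPM. The groups did not overlap at either age, and the difference was −0.42 (SE 0.10, 95% interval −0.63 to −0.21, edgeR adjusted p = 0.545). Ribosomal protein genes have many near-identical pseudogenes, so how the authors' counting assigned such reads bears on this value. Mavs, the mitochondrial adaptor of antiviral RNA sensing, measured 28.2, 27.0 and 30.1 CPM in E12.5 WT against 23.0, 24.7 and 23.8 CPM, and 22.0, 24.0 and 24.2 CPM in E14.5 WT against 18.4, 17.0 and 13.9 CPM, again without overlap (−0.38, SE 0.09, edgeR adjusted p = 0.545).

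Lpar2, a receptor for lysophosphatidic acid that is expressed in cortical progenitors, measured 48.1, 43.3 and 40.8 CPM in E12.5 WT against 32.5, 36.1 and 39.6 CPM in HARE5Hs/Hs, and 32.2, 34.5 and 32.1 CPM in E14.5 WT against 29.7, 23.4 and 22.0 CPM. It was lower in all 6 HARE5Hs/Hs embryos than in any WT embryo of their age (−0.34, SE 0.09, edgeR adjusted p = 0.545). Pprc1, a coactivator of mitochondrial biogenesis, ran from 141 to 151 CPM in E12.5 WT against 123 to 128 CPM, and from 109 to 120.1 CPM in E14.5 WT against 87.6 to 102 CPM (−0.22, SE 0.05, edgeR adjusted p = 0.545). Cdca5, which encodes sororin, the protector of sister chromatid cohesion, differed by −0.33 (SE 0.08), with −0.15 at E12.5 and −0.51 at E14.5. The rest were Gstz1 of tyrosine breakdown (−0.31, SE 0.08), the deubiquitinase gene Usp28 (−0.18, SE 0.05), Nutf2 of nuclear import (−0.22, SE 0.06), the solute carrier gene Slc35a4 (−0.20, SE 0.05) and the RNA-binding protein gene Rbms2 (−0.27, SE 0.07). The ranges of 9 of these 10 genes did not overlap between genotypes at either age, Slc35a4 being the exception. Of all tested genes, 63 (0.44%) were lower without overlap at both ages. The 10 were picked by p from the same libraries, so their lack of overlap is not separate evidence.

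Separation of all embryos at both ages was found for 103 genes, 0.72% of those tested. Of these 40 (0.28%) were higher and 63 (0.44%) lower in HARE5Hs/Hs. At E12.5 alone 1023 genes (7.15%) were separated and at E14.5 alone 2634 (18.4%). A further 64 genes (0.447%) were separated at both ages in opposite directions, beside the 103 in the same direction. With so few embryos per group, some genes separate by chance. Whether any of these counts exceeds chance was not tested, so separation alone is not evidence of a difference in the genes named below. Besides those already named, the largest differences among separated genes with a mean of at least 2 CPM were those of Lat2, an adaptor of immune receptor signalling (0.82, SE 0.27), Peli3, a ubiquitin ligase gene (0.80, SE 0.24), N4bp2l1 (0.66, SE 0.30), the zinc-finger gene Zkscan4 (0.55, SE 0.15), the noncoding RNA Particl (0.51, SE 0.17), the carbohydrate kinase gene Fggy (0.47, SE 0.19) and Zfp771 (0.44, SE 0.19). On the lower side they were Znrd1as, an antisense transcript whose reads cannot be told from those of its partner without the strand setting (−0.76, SE 0.25), Mertk, a receptor kinase of phagocytosis (−0.60, SE 0.21), Rassf3 (−0.48, SE 0.15), Tert, the catalytic subunit of telomerase (−0.31, SE 0.09), and Ccnjl, a cyclin-like gene (−0.27, SE 0.08). Each had an edgeR adjusted p of 0.545.

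Mertk shows how small these absolute differences were: 8.53, 5.83 and 5.27 CPM in E12.5 WT against 5.26, 4.89 and 5.19 CPM in HARE5Hs/Hs, and 4.58, 2.97 and 3.92 CPM in E14.5 WT against 2.67, 1.96 and 1.55 CPM. At E12.5 the lowest WT and the highest HARE5Hs/Hs values all but touched. Tert measured 19.7, 17.3 and 16.3 CPM against 14.2, 11.9 and 15.6 CPM at E12.5, and 20.2, 20.5 and 20.8 CPM against 15.9, 19.03 and 16.1 CPM at E14.5.

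Across genes, the genotype differences at the 2 ages were only loosely related. The ages share no library. The sign was the same at both for 8075 genes (56.4%), and the correlation across the 14311 genes was 0.147 (Pearson) and 0.185 (Spearman), where genes are not independent replicates. At E12.5, 0 genes passed (0%) and 322 (2.25%) had an unadjusted p under 0.05; at E14.5, 0 passed (0%) and 1708 (11.9%) did. Of the difference between the ages, 0 genes passed (0%) and 731 (5.11%) had an unadjusted p under 0.05, all by edgeR. The E14.5 count depended on 1 embryo: without E14.5 HARE5Hs/Hs replicate 1, 19 genes passed at E14.5 and 2 for the difference between the ages.

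**Figure D3:**
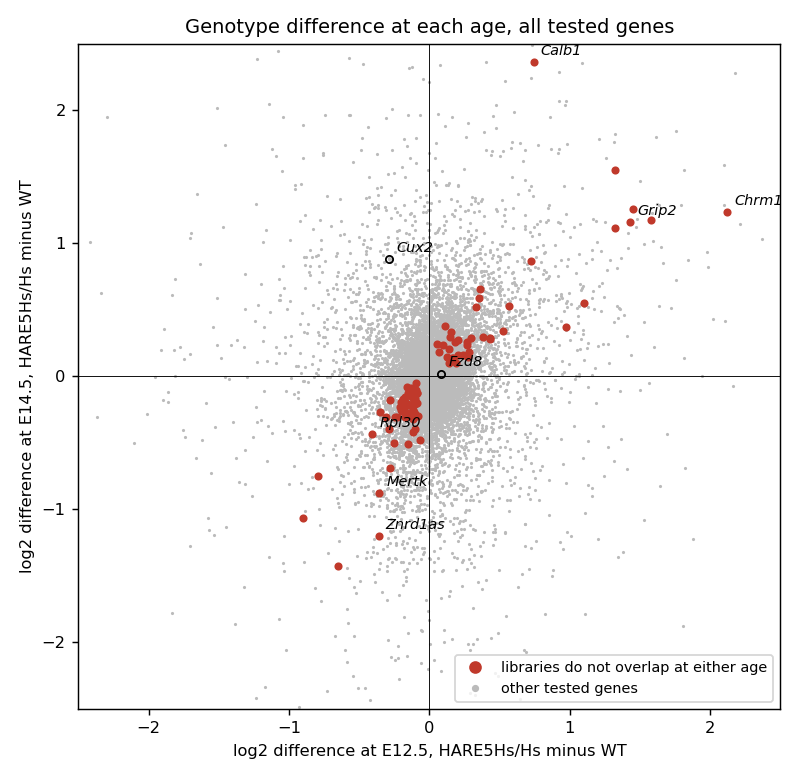
Log2 genotype difference at E12.5 (horizontal) and at E14.5 (vertical) for the tested genes between −2.5 and 2.5 (grey; 107 genes lie outside), with the 103 genes whose libraries do not overlap at either age in red. Fzd8 lies near the origin, and Cux2 is lower at E12.5 and higher at E14.5.

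Wnt pathway genes for ligands and receptors lay mostly below 0. Of 10 Frizzled receptor genes 0 passed, 8 were lower and 2 higher in HARE5Hs/Hs, with a median of −0.15 beside −0.005 for all tested genes. The 3 with an unadjusted p under 0.05 were all lower, as were 3.84% of all tested genes at that level. Fzd1 measured 103, 96.6 and 128 CPM in E12.5 WT, 85.9, 90.5 and 99.8 CPM in E12.5 HARE5Hs/Hs, 124, 121 and 109 CPM in E14.5 WT and 110.0, 99.8 and 91.0 CPM in E14.5 HARE5Hs/Hs (−0.24, SE 0.08, edgeR adjusted p = 0.545). The ranges overlapped narrowly at each age. Fzd9 stood at 29.4, 18.8 and 35.3 CPM against 23.2, 18.99 and 28.3 CPM at E12.5 and at 39.5, 44.1 and 37.8 CPM against 35.2, 26.3 and 18.2 CPM at E14.5 (−0.42, SE 0.18), and Fzd7 differed by −0.21 (SE 0.10). With both libraries that stood apart left out, 0 of the 10 had an unadjusted p under 0.05 and the median was −0.06. In that setting 416 of all 14472 tested genes were at that level, in either direction. Without E14.5 WT replicate 3 it was −0.07.

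Of 12 tested genes for Wnt ligands and their secretion, 0 passed and 10 were lower, with a median of −0.53 (9 were lower with DESeq2 size factors). They include Wnt5a (−0.54, SE 0.23), Wls, the carrier that brings Wnts to the cell surface (−0.44, SE 0.22), and Wnt8b (−0.77, SE 0.43). Wnt8b is a ligand of the cortical hem, the midline signalling centre. It ran from 31.5 to 48.7 CPM in E14.5 WT while the 3 HARE5Hs/Hs embryos of that age measured 31.6, 14.4 and, in replicate 3, 0.182 CPM. Leaving out both libraries moved the median of the 12 to −0.22, and leaving out E14.5 WT replicate 3 alone to −0.29. Of 18 co-receptors and secreted inhibitors, 0 passed and 16 were lower (median −0.37; −0.17 without both libraries, −0.16 without E14.5 WT replicate 3). Ryk, a Wnt-binding receptor kinase-like protein, was lower in all 6 HARE5Hs/Hs embryos than in the WT embryos of their age, by little: 101, 109 and 106 CPM against 111, 111 and 118 CPM at E12.5, and 98.3, 103 and 97.3 CPM against 106, 107 and 111 CPM at E14.5 (−0.12, SE 0.04, edgeR adjusted p = 0.545). Ror2, a receptor for Wnt5a, differed by −0.36 (SE 0.15) and the secreted Dkk3 by −0.62 (SE 0.30).

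Genes of transduction inside the cell lay on both sides of 0. Of 21 genes for β-catenin, the destruction complex and Tcf factors, 0 passed, 10 were higher and 11 lower, with a median of −0.001. The direction of that median turns with the scaling of libraries (0.0078 with DESeq2 size factors) and with single libraries (−0.022 to 0.031), and was −0.0086 without both. At each age alone the median was −0.061 (E12.5) and 0.073 (E14.5). At an unadjusted p under 0.05, 3 were higher and 3 lower, beside 5.28% and 3.84% of all tested genes. Without both libraries there was 1 in each direction, beside 416 of 14472 tested genes in either direction. Tcf7l1, which represses Wnt targets in the absence of β-catenin, measured 79.8, 79.4 and 75.7 CPM in E12.5 WT against 73.6, 72.3 and 64.8 CPM in HARE5Hs/Hs, and 60.1, 65.4 and 60.1 CPM in E14.5 WT against 56.0, 49.2 and 55.0 CPM (−0.18, SE 0.06, edgeR adjusted p = 0.545). It was lower in every HARE5Hs/Hs embryo at its age. Pygo1, a nuclear partner of β-catenin, differed by 0.23 (SE 0.08). Nlk, a kinase that acts on Tcf factors, is not among the 21 and was named after its values were seen. It was separated at both ages and differed by 0.24 (SE 0.10).

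Of 18 Wnt target genes 0 passed, 16 were lower and 2 higher, with a median of −0.26 (15 and 3 with DESeq2 size factors). The 3 with an unadjusted p under 0.05 were all lower (3.84% of all tested genes were lower at that level). Axin2, the feedback inhibitor used as a standard readout of the pathway, measured 156, 148 and 197 CPM in E12.5 WT, 110.4, 135 and 155 CPM in E12.5 HARE5Hs/Hs, 82.4, 77.5 and 104 CPM in E14.5 WT and 94.8, 53.8 and 40.4 CPM in E14.5 HARE5Hs/Hs (−0.40, SE 0.17, 95% interval −0.76 to −0.03, edgeR adjusted p = 0.545). The ranges overlapped at both ages. Lef1, both a target and an effector, measured 45.0, 49.6 and 44.7 CPM in E14.5 WT against 37.9, 29.0 and 22.0 CPM, without overlap, but 64.8, 57.7 and 74.8 CPM in E12.5 WT against 43.4, 62.8 and 72.2 CPM (−0.39, SE 0.15). Znrf3, a ubiquitin ligase that removes Frizzled receptors, differed by −0.25 (SE 0.10). Without both libraries the median of the 18 was −0.16, 14 were lower and 0 had an unadjusted p under 0.05. Of all tested genes, 416 of 14472 then did, in either direction. The lowest Axin2 and Lef1 values of their ages were those of E12.5 HARE5Hs/Hs replicate 1 and E14.5 HARE5Hs/Hs replicate 3, the libraries farthest along the age axis. Whether their position has a part in the Wnt values was not tested.

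**Figure D4:**
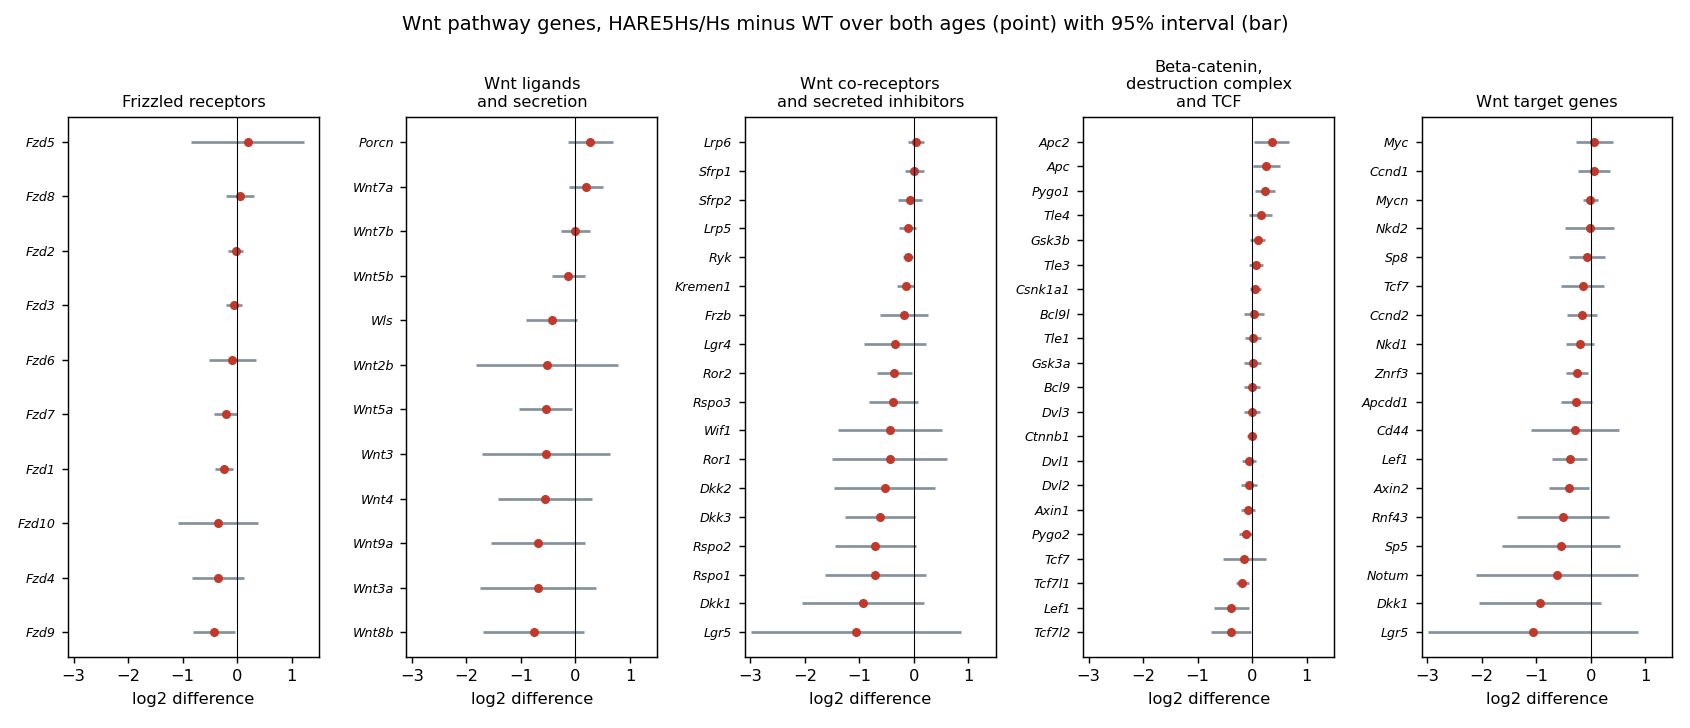
Log2 difference, HARE5Hs/Hs minus WT over both ages, of each tested Wnt pathway gene in 5 lists (points) with its 95% interval (bars). Most points of the ligand, co-receptor and target lists lie below 0, while Fzd8 and most genes of the destruction complex lie near 0.

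Genes of dividing cells lay slightly lower in HARE5Hs/Hs, nearly all in the same direction. All 18 S phase genes were lower and 0 passed, with a median of −0.15 and single values between −0.20 and −0.04; 5 of the 18 had an unadjusted p under 0.05 (3.84% of all tested genes were lower at that level), and 0 had without E14.5 HARE5Hs/Hs replicate 3 or without both libraries. Mcm5, of the replicative helicase, measured 318, 389.9 and 363 CPM in E12.5 WT against 308, 349.5 and 334 CPM, and 228, 267 and 235 CPM in E14.5 WT against 225, 189.9 and 187 CPM, with overlap at E12.5 only (−0.19, SE 0.07, edgeR adjusted p = 0.545). Pola1, of DNA polymerase α, differed by −0.19 (SE 0.08) and the helicase gene Mcm3 by −0.19 (SE 0.08). All 16 G2 and M phase genes were lower as well (0 passed, median −0.13, 4 with an unadjusted p under 0.05 beside the same 3.84%, and 1 without both libraries), among them the mitotic kinesin gene Kif20a (−0.19, SE 0.06), the mitotic kinase gene Aurkb (−0.21, SE 0.07) and the cyclin gene Ccnb1 (−0.20, SE 0.07). With a stricter filter (CPM at or above 1 in 6 or more libraries) 1 of the 16 was higher. The medians were −0.035 at E12.5 and −0.24 at E14.5 for S phase, and 0.0054 and −0.26 for G2 and M phase. Leaving out both libraries that stood apart gave −0.10 for each list, with 17 of 18 and 14 of 16 genes lower. Of all tested genes, 416 of 14472 then had an unadjusted p under 0.05, in either direction.

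Other cell cycle lists were less uniform. Of 18 genes for G1 cyclins, their kinases and inhibitors, 12 were lower and 6 higher (median −0.10), with Cdk2 at −0.17 (SE 0.06), the transcription factor E2f1 at −0.17 (SE 0.07) and the inhibitor Cdkn2d at 0.23 (SE 0.09). Of 14 microcephaly and centriole genes, 12 were lower and 2 higher (median −0.07), with Mcph1 at −0.19 (SE 0.08), the spindle pole gene Wdr62 at −0.19 (SE 0.08) and the kinesin gene Kif14 at −0.18 (SE 0.08). In both lists 0 passed. The medians were 0.05 at E12.5 and −0.18 at E14.5 for the G1 genes, and 0.03 and −0.20 for the microcephaly and centriole genes.

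Radial glia genes lay on both sides of 0. Of 19, 0 passed, 13 were lower and 6 higher, with a median of −0.05 (0.07 at E12.5 and −0.12 at E14.5). Fabp7, the fatty acid-binding protein of radial glia, measured 165, 151 and 163 CPM in E12.5 WT against 279, 174 and 202 CPM in HARE5Hs/Hs, without overlap, and 321, 327 and 297 CPM in E14.5 WT against 323, 387 and 386 CPM, with overlap (0.33, SE 0.10, edgeR adjusted p = 0.545). Prom1, a membrane protein of the apical surface, differed by −0.20 (SE 0.07) and the growth factor receptor gene Fgfr3 by −0.32 (SE 0.13). Of 9 genes known from outer radial glia in primates, 7 were lower and 2 higher (median −0.21), with Ptprz1, a receptor phosphatase, at 0.39 (SE 0.17). Of 19 Notch pathway genes, 13 were lower (median −0.08), with the ligand Dll1 at −0.21 (SE 0.08), the fate determinant Numb at −0.21 (SE 0.10) and Notch3 at −0.14 (SE 0.07). Of 14 intermediate progenitor genes, 10 were higher (median 0.11; 0.05 without both libraries and 0.04 without E12.5 HARE5Hs/Hs replicate 1), with Insm1, a factor of delamination and basal division, at 0.28 (SE 0.13), Pde1c, a phosphodiesterase gene, at 0.35 (SE 0.19) and Mfap4 at −0.31 (SE 0.11). In these 3 lists, too, 0 passed.

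Neuronal genes lay higher in HARE5Hs/Hs, and their size depended on the 2 libraries that stood apart. In bulk tissue more cells of a type and more RNA per cell cannot be told apart. Of 15 general neuron genes, 0 passed and 15 were higher, with a median of 0.40, and 9 had an unadjusted p under 0.05 (5.28% of all tested genes were higher at that level). Gap43, of growing axons, measured 43.7, 39.8 and 37.3 CPM in E12.5 WT, 79.5, 46.3 and 42.6 CPM in E12.5 HARE5Hs/Hs, 144, 122 and 110.5 CPM in E14.5 WT and 137, 203 and 183 CPM in E14.5 HARE5Hs/Hs (0.48, SE 0.14, edgeR adjusted p = 0.545). Rbfox1, a splicing regulator of neurons, stood at 11.1 CPM in E12.5 HARE5Hs/Hs replicate 1 and between 2.07 and 2.68 CPM in the other 5 libraries of that age (1.03, SE 0.33; 0.66 without it). Snap25, of the synaptic vesicle fusion machinery, stood at 199 CPM in E14.5 HARE5Hs/Hs replicate 3 and between 35.5 and 58.3 CPM in the other 5 (0.97, SE 0.38; 0.42 without it). Without both libraries all 15 were still higher, with a median of 0.12, and 2 had an unadjusted p under 0.05. The count over all tested genes fell as well, to 416 of 14472 in either direction.

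Genes of synapses and ion channels showed the largest median among the lists of cortical genes. Of 19, 0 passed and 18 were higher, with a median of 0.56, and 12 had an unadjusted p under 0.05, beside 5.28% of all tested genes. Kcnq3, a potassium channel gene, measured 24.0, 24.2 and 17.3 CPM in E14.5 WT against 31.8, 45.1 and 62.9 CPM, without overlap, and 2.49, 0.992 and 0.690 CPM in E12.5 WT against 4.34, 1.26 and 2.53 CPM, with overlap (1.04, SE 0.29, edgeR adjusted p = 0.545). Nrxn3, a presynaptic adhesion gene, differed by 1.71 (SE 0.50) and the glutamate receptor gene Gria1 by 1.22 (SE 0.38). Without both libraries the median was 0.22, 15 were higher and 3 had an unadjusted p under 0.05, beside 416 of 14472 tested genes in either direction. Of 22 axon guidance genes, 17 were higher (0 passed, median 0.17; 0.09 without both libraries), with the receptor gene Robo2 at 0.47 (SE 0.17), its ligand Slit2 at −0.42 (SE 0.17) and Sema6a at −0.22 (SE 0.09).

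Lists of layer identity lay in the same direction. Of 12 deep-layer genes, 9 were higher (0 passed, median 0.20), and 7 without both libraries (median 0.12). Bcl11b, which directs subcerebral projection neurons, measured 64.7, 50.6 and 61.4 CPM in E12.5 WT against 111, 52.5 and 74.9 CPM, and 269.6, 235 and 198 CPM in E14.5 WT against 253, 334 and 399.98 CPM, with overlap at both ages (0.46, SE 0.16, edgeR adjusted p = 0.545). Tbr1 of layer 6 neurons differed by 0.33 (SE 0.13) and Nr4a2 of the subplate by −0.30 (SE 0.12). Of 11 upper-layer genes, 10 were higher (0 passed, median 0.34; 0.19 without both libraries). Pou3f1, a POU factor, measured 2.99, 2.74 and 1.51 CPM in E12.5 WT against 8.81, 5.76 and 1.93 CPM, and 6.90, 4.05 and 5.58 CPM in E14.5 WT against 7.30, 15.8 and 14.1 CPM (1.18, SE 0.32, edgeR adjusted p = 0.545), and Rorb, of layer 4 neurons, differed by 1.10 (SE 0.32). Lhx2, of progenitors and upper layers, was the 1 that was lower (−0.22, SE 0.10). Of 9 genes of Cajal-Retzius cells, the early neurons of the marginal zone, 8 were lower (0 passed, median −0.33; −0.19 without both libraries and −0.22 without E14.5 WT replicate 3), with the transcription factor genes Ebf3 at −0.41 (SE 0.13), Nhlh2 at −0.35 (SE 0.13) and Lhx1 at −0.51 (SE 0.27).

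**Figure D5:**
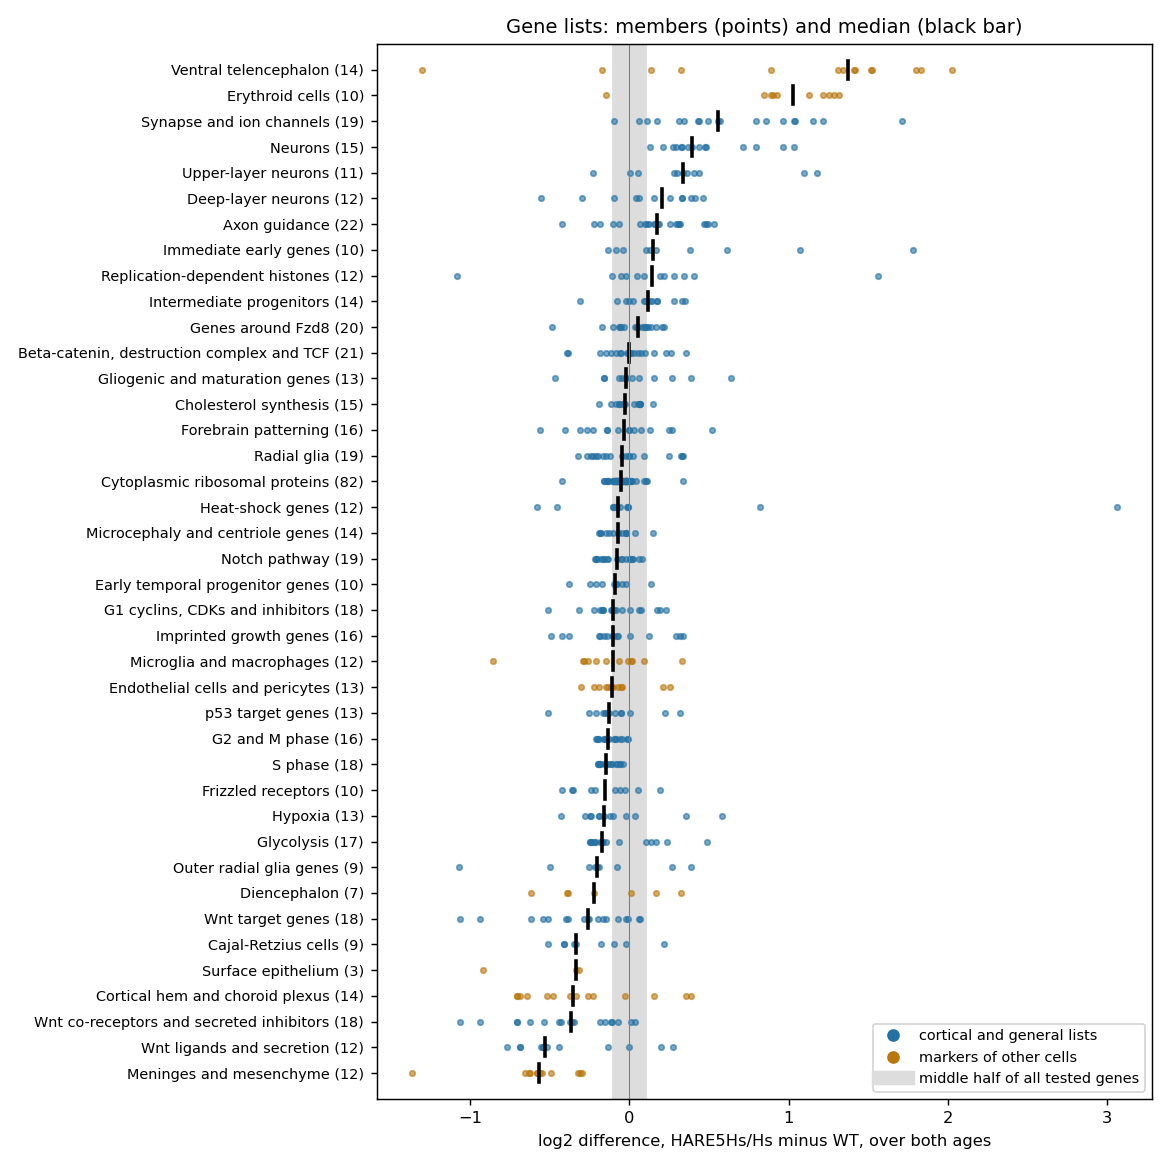
Log2 difference, HARE5Hs/Hs minus WT over both ages, of the members of each gene list (points; number tested in parentheses) with the list's median (black bar), ordered by median, beside the range between the quartiles of all tested genes (grey). Ventral telencephalon and erythroid markers (ochre) and neuronal lists lie highest, and Wnt ligands and meningeal markers lowest.

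Patterning genes were mixed, with 10 of 16 lower (0 passed, median −0.03). Dmrt3, a factor of medial cortical progenitors, measured 53.4, 53.3 and 86.3 CPM in E12.5 WT against 42.1, 49.4 and 54.7 CPM, and 32.6, 41.4 and 37.0 CPM in E14.5 WT against 28.9, 20.3 and 16.9 CPM (−0.56, SE 0.15, edgeR adjusted p = 0.545). The ranges overlapped at E12.5 and not at E14.5. Etv1, an ETS-family transcription factor gene, differed by 0.52 (SE 0.15). Of 10 early temporal progenitor genes, 9 were lower (0 passed, median −0.09; −0.025 without both libraries), with the RNA-binding protein gene Igf2bp1 at −0.25 (SE 0.10). Of 13 gliogenic and maturation genes, 7 were lower and 6 higher (0 passed, median −0.02; −0.0091 without both libraries), with Zbtb20 at 0.64 (SE 0.29). Without E12.5 HARE5Hs/Hs replicate 1 Zbtb20 differed by 0.32, and without both libraries by 0.23.

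Metabolic, growth and stress lists were small in their differences, and in all of them 0 passed. Of 17 glycolytic genes 12 were lower (median −0.17; −0.11 without both libraries), with Tpi1 at −0.25 (SE 0.09), Gapdh at −0.17 (SE 0.07) and the hexokinase gene Hk1 at 0.24 (SE 0.09). Hypoxia genes were lower in 10 of 13 (median −0.16; −0.05 without both libraries), with Pgk1, which is also glycolytic, at −0.24 (SE 0.10) and Ndrg1 at 0.58 (SE 0.21). Of 15 cholesterol synthesis genes 7 were higher and 8 lower (median −0.02; 0.0061 without both libraries), with Fdft1, of squalene synthesis, at 0.15 (SE 0.07). Of 16 imprinted growth genes 11 were lower (median −0.10), with Plagl1 at −0.18 (SE 0.08) and Grb10 at −0.19 (SE 0.09). Ribosomal protein genes were lower in 73 of 82 cases by a median of −0.05, with Rpl28 and Rps2 at −0.16 each (SE 0.06 and 0.07), and 71 were lower with DESeq2 size factors and 61 without both libraries (median −0.02). Their median was 0.0003 at E12.5 and −0.10 at E14.5. Of 68 replication-dependent histone genes only 12 were tested, and 8 of these were higher (median 0.14). That median was 0.23 at E12.5 and −0.05 at E14.5. It was 0.02 without E12.5 HARE5Hs/Hs replicate 2 and 0.21 without E12.5 WT replicate 3. Of 13 p53 target genes 10 were lower (median −0.12; −0.06 without both libraries). Of 10 immediate early genes 7 were higher (median 0.15), with Egr3, a zinc-finger factor, at 1.78 (SE 0.82). Egr3 stood at 9.11 CPM in E14.5 HARE5Hs/Hs replicate 3 and at 2.09 CPM or less in the other 11 libraries, and without that library its difference was 0.89.

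Among 12 heat-shock genes, 10 were lower and the median was −0.07, with 7 lower and a median of −0.04 without both libraries. The list holds the case in which 1 embryo sets a value most clearly. Hspa1b, an inducible Hsp70 gene, stood at 80.9 CPM in E14.5 HARE5Hs/Hs replicate 3 and at 1.53 CPM or less in the other 11 libraries. Its difference of 3.06 (SE 1.39, edgeR adjusted p = 0.545) was 0.30 without that library. Bag3, a co-chaperone gene, differed by −0.45 (SE 0.20).

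Markers of cells outside the dorsal cortex differed widely between embryos. Of 14 ventral telencephalon genes, which mark the source of inhibitory interneurons, 0 passed and 12 were higher, with a median of 1.38, and 7 had an unadjusted p under 0.05, beside 5.28% of all tested genes. Their summed level was 49.9 to 134 CPM in E12.5 WT and 51.5 to 287 CPM in E12.5 HARE5Hs/Hs, which overlap, and 54.4 to 68.7 CPM in E14.5 WT and 86.5 to 167 CPM in E14.5 HARE5Hs/Hs, which do not. The exact permutation p of the summed level was 0.09 (adjusted p = 0.225 over 10 single values). Dlx1 measured 11.5, 12.4 and 2.76 CPM in E12.5 WT against 60.6, 27.9 and 1.33 CPM, and 6.84, 6.54 and 2.92 CPM in E14.5 WT against 7.59, 30.7 and 20.6 CPM (1.80, SE 0.62, edgeR adjusted p = 0.545). Lhx6, of migrating interneurons from the medial eminence, measured 14.8, 10.998 and 7.501 CPM in E14.5 WT against 19.1, 31.8 and 39.3 CPM, and overlapped at E12.5 (0.89, SE 0.29), and Sp9 differed by 1.83 (SE 0.66). Dlx6, Gsx2, Nkx2-1 and Isl1 were at 0 in 4 or 5 libraries. E12.5 HARE5Hs/Hs replicate 1, the highest of its age in these markers, was also the highest in Stmn4, Gap43, Rbfox1 and Bcl11b. The same library was the highest of its age in the cortical markers Tbr1 (178 CPM), Neurod6 (107 CPM) and Eomes (193 CPM). At E14.5, HARE5Hs/Hs replicate 2 had the highest ventral sum (167 CPM) and was the highest in Stmn4 and Gap43. Replicate 3 of that group was the highest in Snap25, Bcl11b and Kcnq3, with a ventral sum of 120 CPM. The part of ventral cells in the neuronal values was not tested. Without both libraries that stood apart the median of the 14 was 0.93. In that setting 1 had an unadjusted p under 0.05, beside 416 of 14472 tested genes in either direction.

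Blood genes lay higher in the mean of HARE5Hs/Hs, a difference that did not pass once adjusted. Hemoglobin genes took 0.452%, 0.572% and 0.627% of counts in the E12.5 WT embryos and 0.519%, 0.663% and 1.57% in E12.5 HARE5Hs/Hs. They took 0.100%, 0.209% and 0.306% in E14.5 WT and 0.339%, 0.627% and 0.805% in E14.5 HARE5Hs/Hs. All E14.5 HARE5Hs/Hs embryos lay above all E14.5 WT embryos. The log2 share differed by 1.08 between genotypes (exact permutation p = 0.025, two-sided over 400 assignments of which 0.005 is the smallest p possible, adjusted p = 0.125 over 10 single values). Of 10 tested erythroid genes 0 passed, 9 were higher and 9 had an unadjusted p under 0.05, beside 5.28% of all tested genes (median 1.03), and the median was 1.17 without the 2 libraries that stood apart. Hba-a2, an adult α-globin gene, measured 152, 50.5 and 173 CPM in E12.5 WT against 252, 142 and 403 CPM, and 120, 39.1 and 148 CPM in E14.5 WT against 237, 297 and 289 CPM (1.25, SE 0.35, edgeR adjusted p = 0.545). Hba-a1 and Hba-a2 are near-identical copies, so the split of reads between them is uncertain.

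Other lists of foreign cells lay lower or near 0, with 0 genes passing in each. All 12 genes of meninges and mesenchyme were lower (median −0.57; −0.24 without both libraries, −0.16 without E14.5 WT replicate 3), with the retinoic acid enzyme gene Aldh1a2 at −1.36 (SE 0.76) and Foxc1 at −0.63 (SE 0.37). Their summed level was 192 to 1166 CPM in E14.5 WT and 62.2 to 618 CPM in E14.5 HARE5Hs/Hs, the lowest in replicate 3, and overlapped at both ages. Of 14 genes of cortical hem and choroid plexus 11 were lower (median −0.36; −0.12 without both libraries, −0.09 without E14.5 WT replicate 3), with the Wnt agonist gene Rspo2 at −0.71 (SE 0.35). Their summed level ran from 34.7 CPM in E14.5 HARE5Hs/Hs replicate 3 to 953 CPM in E12.5 WT replicate 3. Among E14.5 libraries Wnt8b and Rspo2 were lowest in the library with the lowest sum, but Rspo2 is a member of that sum. The order did not hold beyond that library. E14.5 HARE5Hs/Hs replicate 2 had the next-lowest Wnt8b, yet its sum was 809 CPM, of which Ttr made 635 CPM. E14.5 WT replicate 1 had the next-lowest sum, 166 CPM, and more Wnt8b than that replicate. Wnt3a, Wnt2b, Rspo1, Rspo2 and Rspo3 are in both this list and the Wnt lists, which are therefore not independent of it. The part of the hem in the Wnt values was not tested. Diencephalic genes were lower in 4 of 7 (median −0.22; 0.19 without both libraries), with Tcf7l2, also a Wnt effector, at −0.39 (SE 0.17), and their summed level differed by −0.30 (exact permutation p = 0.045, adjusted p = 0.15). The median of the 7 diencephalic genes was −0.17 at E12.5 but 0.86 at E14.5, so their value over both ages is not the mean of those medians. Of 13 genes of vessels 11 were lower (median −0.11), but without both libraries 8 were higher (median 0.04), and the median was −0.013 without E14.5 WT replicate 3. Of 12 genes of microglia and macrophages 8 were lower (median −0.10), with Trem2 at −0.86 (SE 0.31). That median turned to 0.03 without E14.5 HARE5Hs/Hs replicate 3 and to 0.08 without E14.5 WT replicate 3, and was −0.0068 without both HARE5Hs/Hs libraries. Of 3 genes of surface epithelium 3 were lower (median −0.34), with Epcam at −0.92 (SE 0.38), but 2 were higher without both libraries (median 0.01), and the median was 0.03 without E12.5 WT replicate 1. At each age alone the median of the 3 was −0.89 (E12.5) and 0.33 (E14.5). The exact permutation adjusted p of the summed level was 0.55 for meninges, 0.745 for hem and choroid plexus, 0.55 for vessels, 0.683 for microglia, 0.125 for erythroid cells and 0.562 for surface epithelium.

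Chromosome 18, which holds Fzd8, was examined for genes that might differ with the locus. Of 402 tested genes on it, 6 (1.49%) were separated at both ages, beside 0.72% of all tested genes, and 11.4% had an unadjusted p under 0.05, beside 9.11%. Chromosome 6 held a larger share of separated genes (12 of 701, 1.71%). The 6 genes were Riok3 and Ss18, at 14 and 23 tested genes from Fzd8, and 4 genes at 80 to 351. Riok3, an atypical kinase gene, differed by 0.17 (SE 0.06) and Ss18, a chromatin remodelling subunit gene, by −0.18 (SE 0.05), each with an edgeR adjusted p of 0.545. They were named after their values were seen, and gene order comes from a reference of another build.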

How the data were processed

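The submitters' processing notes name STAR, DESeq2 and the mm39 build, and the names of the deposited tables add Salmon. No version or strand setting is given in the sources used here. The deposited tables, per the file headers, hold the authors' expected counts and FPKM for 24411 genes; the expected counts are whole numbers (0 are not), and both tables hold the same values for the 12 libraries (0 counts differ). Another 12 columns per table, of libraries that match no sample, were not used here. Of the genes, 6454 had no count in any library.

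Counts were analysed with R 4.3.3 and edgeR 4.0.16: genes kept by filterByExpr (minimum count 10, 14311 genes), TMM scaling, and a quasi-likelihood fit of day plus genotype. A second fit with 1 mean per group gave the contrasts at each age and their difference. P-values are two-sided, with Benjamini-Hochberg adjustment and a threshold of 0.05. The SE is the log2 difference divided by the square root of F, an approximation. FPKM was used only to compare levels between genes. The age axis projects log2 CPM (prior count 2) on the mean age difference over all tested genes. Single values were compared by exact permutation within age. The fit was tested on simulated data. Replicate numbers were not used as a block, and replicates differed by more than counting noise (chi-square per degree of freedom 12.3 to 26.9).

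The comparison, the gene lists and the rule for naming genes were chosen with earlier results of these data known. Lists come from general knowledge, and no set test was run. Named genes are the 10 per direction with the smallest p (mean of at least 2 CPM, a named symbol), Fzd8 and its nearest tested neighbours, up to 3 members of each list by p, and the 10 per direction with the largest difference among genes separated at both ages. Gene order and chromosomes come from a reference of GRCm38, which matched 99.8% of tested symbols. Alternatives were DESeq2 1.42.0 (its test and its size factors), limma 3.58.1, no filter, a stricter filter (CPM at or above 1 in 6 or more libraries), 1 mean per group, replicate number as a block, Xist as a covariate, and leaving out libraries. P-values set the genotype difference against the spread between single embryos. Some genes that the rule names are not reported here.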

Additional observations from a re-analysis of the deposited data

Results flagged for a closer look

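Cux2, a transcription factor gene of upper-layer neurons, was separated between genotypes at both ages in opposite directions, and was named after its values were seen. At E12.5 it measured 38.4, 39.2 and 46.7 CPM in WT against 35.5, 33.2 and 33.3 CPM in HARE5Hs/Hs, a log2 difference of −0.28 (SE 0.14). At E14.5 it measured 32.9, 33.1 and 30.8 CPM in WT against 45.3, 70.1 and 63.5 CPM, a difference of 0.88 (SE 0.14). The difference between the ages was 1.17, with an unadjusted p of 6.68e-05 in edgeR's quasi-likelihood test but an edgeR adjusted p of 0.921 over 14311 genes. Over both ages the opposite values left a mean difference of 0.30 (SE 0.19, edgeR adjusted p = 0.633).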

How the results depend on the processing

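The count of 0 genes over both ages held under all 22 alternatives. Of 2813 values of the 128 named genes under these alternatives, 2810 kept their direction and 0 passed. The 3 that turned were Fzd8 without E12.5 HARE5Hs/Hs replicate 1 (−0.067) and without both libraries that stood apart (−0.055), where the main value was 0.05, and Wac without both (−0.014). Leaving out 1 library, Fzd8 ranged from −0.067 to 0.13. Counts at an unadjusted p under 0.05 ranged from 759 to 1916 on leaving out 1 library, and 416 were counted without both. Of the 128 genes, 41 moved by over 1.5 times or turned without both libraries, and 25 on leaving out at least 1 library. Of 40 list medians, 27 did so without both (4 turned) and 24 on leaving out at least 1 library (6 turned).

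The alternatives for each age and for single values were chosen after seeing the data. On leaving out 1 library, the count at E14.5 ranged from 0 to 19 and that for the difference between the ages from 0 to 2, in both cases highest without E14.5 HARE5Hs/Hs replicate 1, while E12.5 kept 0. The hemoglobin share ranged from 0.84 to 1.26 and the erythroid sum from 0.82 to 1.23, at 1.24 and 1.22 each with an exact permutation adjusted p of 0.025 without E12.5 HARE5Hs/Hs replicate 2. The sum for hem and choroid plexus ranged from −0.69 to 0.43, turning positive without E14.5 WT replicate 3 (0.06) or E14.5 HARE5Hs/Hs replicate 3 (0.43). The sum for microglia ranged from −0.28 to 0.03 and turned positive without the same libraries (0.027 and 0.0058). The cause was not tested. The median of the 7 diencephalic genes turned to 0.13 without E12.5 HARE5Hs/Hs replicate 1, to 0.40 with 1 mean per group and to 0.19 without both libraries.

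Same-numbered embryos of the 2 genotypes did not deviate together at both ages: after group means were removed, they correlated at 0.0963, 0.336 and 0.124 at E12.5 and at −0.112, −0.144 and −0.443 at E14.5. At E12.5 all 3 were positive, and 2 of 3 embryos correlated best with their own number. The labels name no shared litter or day, not every pair correlated above 0.1, and the number was not taken as a pairing. With it as a replicate block, 0 genes passed, with 1191 at an unadjusted p under 0.05 within each age and 1173 across ages, and Fzd8 stood at 0.043 and 0.046.

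With 6 embryos per genotype, the median unadjusted 95% interval of a gene reached 0.23 to either side. Larger differences did not pass either, so this width is not a limit of detection.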

Other observations

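In 64 genes (0.447% of those tested) the embryos were separated at both ages in opposite directions. Of these, 36 were higher at E12.5 and lower at E14.5 in HARE5Hs/Hs and 28 the reverse. Their mean over the ages averages measured differences of opposite sign. Whether these differences exceed chance was not tested for the 64 as a set. By edgeR the smallest adjusted p of a difference between the ages was 0.921.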
